A study of Homo sapiens with 4 samples.

Results

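Interferon-induced genes were examined as a set of 41 listed genes in PLC8024, an established human hepatocellular carcinoma line, after its cells had been sorted for CD133. Members were found as the probe sets that the array's annotation assigns to a single listed gene, and the probe set of highest mean RMA stood for its gene. This gave 39 members with 68 probe sets, out of 19775 genes measured, and IFI30 and STAT2 were not analysed here. There was 1 CD133+ and 1 CD133- population of the same line, with no treatment or agent named in the labels. Each population was given once as RMA values, on a log2 scale, and once as MAS5 intensities, on a linear scale. With 1 array per population in each processing there was no replicate, so no difference below has an error between cultures or sorts, no test was possible and no p-value is given.

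Interferons are secreted proteins that cells release on sensing viral nucleic acid. Type I and type III interferons signal through receptor-bound kinases to a transcription factor complex that contains IRF9 and binds the interferon-stimulated response element (ISRE) in front of target genes. Interferon gamma acts through a related kinase pathway on genes with a gamma-activated site (GAS). The induced genes encode RNA sensors, antiviral effectors, the ubiquitin-like modifier ISG15 and transcription factors that feed back on the pathway, and many have a basal level without added interferon.

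PROM1, which encodes CD133, measured 10.35 in CD133+ against 6.04 in CD133- in RMA, in the direction of the labels. Across all 54675 probe sets the RMA values of both populations had a Spearman correlation of 0.986. All 11 hepatocyte and hepatocellular carcinoma markers measured were above the floor in both populations, among them ALB, AFP, APOB and SERPINA1. Of the 11, 3 were counted as lower in CD133+, namely ALB, AFP and APOA1, beside 1.09% of all genes. ALB measured 7.70 in CD133+ against 11.12 in CD133- in RMA, and AFP 9.05 against 11.83. Of 10 leukocyte markers, 5 were above the floor in each population, namely LYZ, CD3E, CD3D, CD4 and ITGAM. The others, PTPRC, CD14, CD8A, MS4A1 and NKG7, were under it in both. None of the marker genes was at 0. A gene counts as above the floor when its higher RMA value is at least its column's median, which was 5.16 in CD133+ and 5.14 in CD133-. In bulk RNA of sorted cells, a smaller number of cells with a transcript and less of it per cell cannot be told apart.

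Interferon-induced genes were spread over both sides of 0, and GBP2 and MX2 were the members counted as higher in CD133+. Of the 39 measured members, 29 were above the floor, which is 74.4% against 66.3% of all genes. IFI27, GBP1 and PARP9 passed through CD133+ alone, with CD133- under the floor, and none passed through CD133- alone. These 2 were at least 2-fold higher in CD133+ in RMA and in MAS5, and no member was at least 2-fold lower in both. Over all 13116 genes above the floor, 2.25% were higher and 1.09% lower by this rule, so 2 of 29, or 6.9%, stands on few genes. At 1.5-fold in both processings 6 members were higher, namely GBP2, MX2, ISG20, IFI6, ISG15 and, with a CD133- value under the floor, GBP1, and none was lower, beside 5.32% and 4.17% of all genes. The members' median RMA difference, CD133+ minus CD133-, was 0.04 on the log2 scale, and that of all genes above the floor was 0.00. Over the 26 members above the floor in both populations it was 0.02. The central 50% of the members ran from -0.17 to 0.46, and that of all genes from -0.21 to 0.20. Of the 29, 16 had a difference above 0, 12 a difference below 0, and DDX58 had equal RMA values. The 16 are 55.2%, against 48.2% of all genes above the floor, and include IFI27, GBP1 and PARP9.

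**Figure D1:**
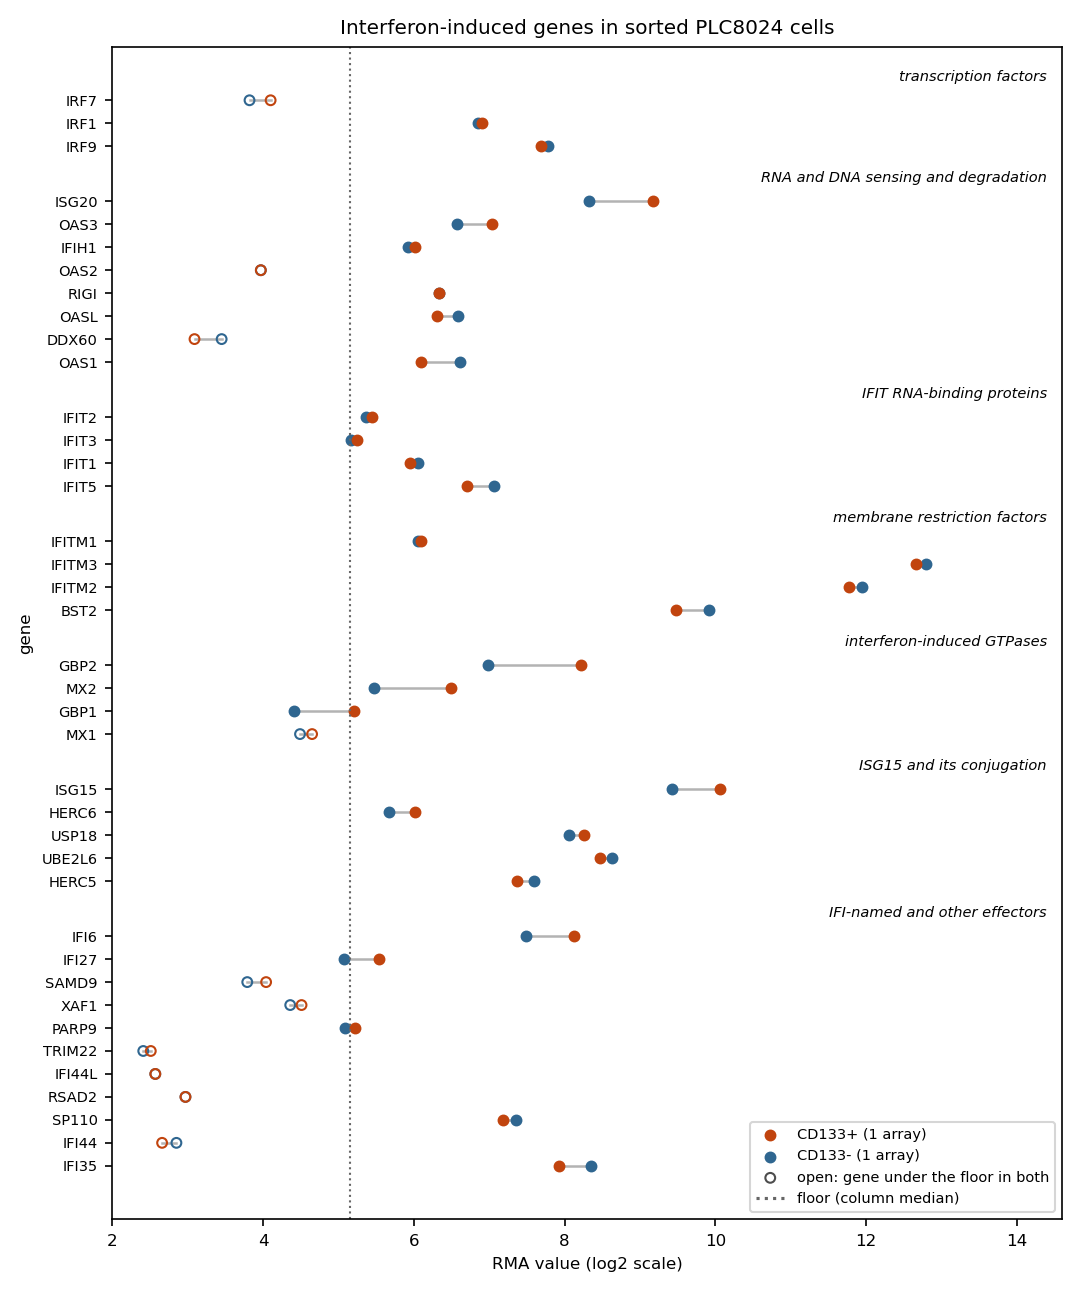
RMA values (log2 scale, 1 array each) of the 39 measured members in CD133+ and CD133- cells, ordered by role, with open points for the 10 genes under the floor in both populations and a dotted line at the mean of both floors. The widest gaps are those of GBP2, MX2, ISG20 and GBP1, all with the CD133+ point to the right, while points of 1 gene should not be set against those of another.

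A technical spread for the members came from 6170 genes with at least 2 probe sets above the floor, of which the 2 with the highest mean RMA were compared. The gap between their differences had an SD of 0.35 in RMA and of 0.79 in MAS5. The 95th percentile of its absolute size was 0.70 in RMA and 1.64 in MAS5. GBP2, MX2, ISG20 and, with a CD133- value under the floor, GBP1 had an RMA difference beyond 0.70, and no other member did. The other probe sets of GBP1 were under the floor, so it gave no pair to this spread. The share of all genes beyond 0.70 was not counted, and the central 95% of all genes ran from -0.78 to 0.96. Of the 29 members, 13 lay within 0.20 of 0 in RMA, inside that SD. The narrower central range given above for all genes, from -0.21 to 0.20, covers almost the same band. The count of 13 is therefore not read as a result about the members. Beyond 0.40 there were 8 members on the CD133+ side and 3 on the CD133- side. The share of all genes beyond 0.40 was not counted, so this split is not read as a result. The 8 include GBP1 and IFI27, which had to be higher in CD133+ to pass the floor, and without them 6 remain. This pair could be formed in 8 members and shared the sign of the RMA difference in 7, while in DDX58 the first of the pair was 0. Further probe sets can differ in sign, as in SP110. This spread leaves out sorts, cultures and arrays.

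**Figure D2:**
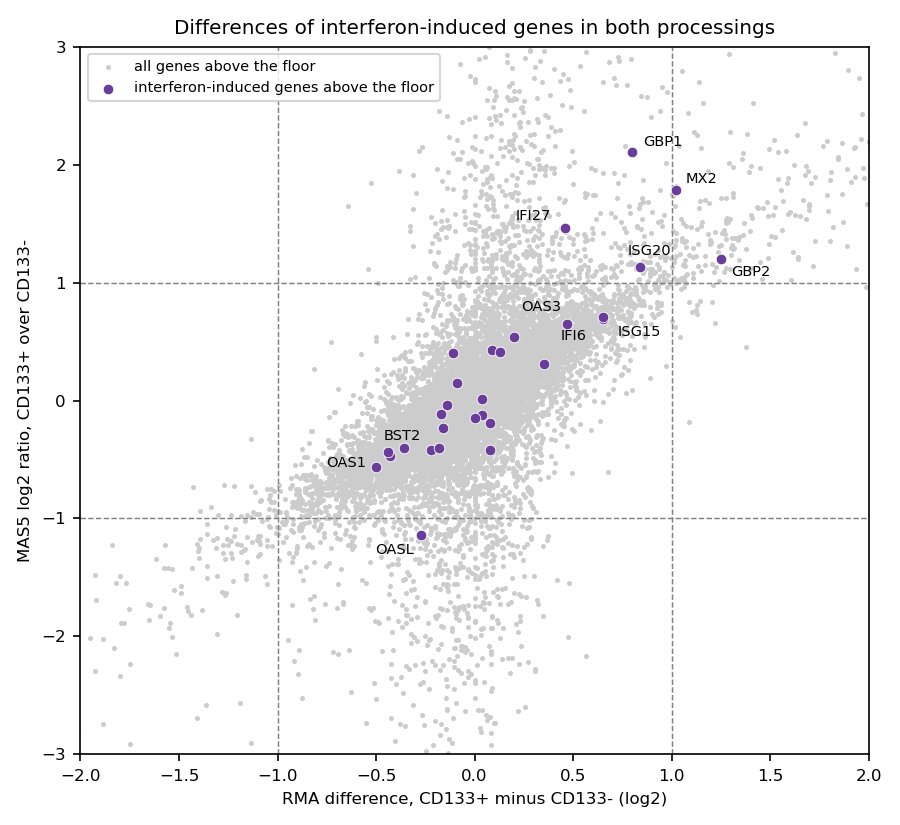
RMA difference (horizontal, log2) against MAS5 log2 ratio (vertical), CD133+ over CD133-, for all genes above the floor in grey and the 29 interferon-induced genes above the floor in purple, with dashed lines at 2-fold and the axes limited to the region around the members. GBP2 and MX2 lie past 2-fold in both and GBP1, ISG20 and IFI27 on the same side only in MAS5, while OASL at -1.14 in MAS5 is the lowest point and OAS1, BST2 and IFI35 are the farthest left.

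The promoters of several members are printed because the set spans both directions while many members share the same element. RefSeq promoter windows (GRCh38.p14, 250 bases before to 50 after each gene start) were held for 32 of the 41 genes. GBP2, MX2, IFIT2, IFITM2, OAS2, OASL, IRF7, USP18 and TRIM22 had no entry. The ISRE core was searched as GAAA, 2 bases of any kind and GAAA again, on both strands (on the opposite strand it reads TTTC, 2 bases and TTTC), with overlapping matches allowed. It was present in a window of 21 of the 32 genes, or 65.6%, and in 25 of their 42 windows, or 59.5%. Of all 35116 windows of this length 3.57% held it. The GAS pattern TTCNNNGAA, which reads alike on both strands, was in a window of 10 of the 32 genes, or 31.2%, against 9.38% of all genes in the table, and in 11 of their 42 windows, against 7.66% of all windows. Printed 5′ to 3′ on the gene strand are the 170 bases before the start of 7 members, with ISRE core matches in capitals. The first 4 are among the 6 members higher at the 1.5-fold limit, with RMA differences of 0.65, 0.65, 0.84 and 0.80, and BST2, HERC5 and IFIT1 had RMA differences of -0.44, -0.22 and -0.11.
ISG15 (chr1:1013327-1013496, plus strand): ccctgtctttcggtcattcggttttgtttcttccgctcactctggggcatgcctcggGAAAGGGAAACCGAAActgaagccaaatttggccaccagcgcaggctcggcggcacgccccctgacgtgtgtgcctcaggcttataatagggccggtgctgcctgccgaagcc
IFI6 (chr1:27672193-27672362, minus strand): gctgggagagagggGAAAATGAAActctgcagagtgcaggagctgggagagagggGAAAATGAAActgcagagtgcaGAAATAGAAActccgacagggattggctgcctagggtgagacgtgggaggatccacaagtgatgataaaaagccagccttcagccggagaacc
ISG20 (chr15:88638846-88639015, plus strand): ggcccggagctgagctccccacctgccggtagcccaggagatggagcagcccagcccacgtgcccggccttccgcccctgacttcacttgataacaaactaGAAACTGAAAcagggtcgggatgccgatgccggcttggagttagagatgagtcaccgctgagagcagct
GBP1 (chr1:89065209-89065378, minus strand): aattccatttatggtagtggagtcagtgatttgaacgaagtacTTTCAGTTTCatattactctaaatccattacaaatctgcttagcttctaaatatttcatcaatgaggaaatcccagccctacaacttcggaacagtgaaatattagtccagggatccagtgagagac
BST2 (chr19:17405631-17405800, minus strand): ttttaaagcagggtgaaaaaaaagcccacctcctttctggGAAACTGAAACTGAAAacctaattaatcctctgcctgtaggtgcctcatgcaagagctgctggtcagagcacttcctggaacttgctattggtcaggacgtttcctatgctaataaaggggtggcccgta
HERC5 (chr4:88456949-88457118, plus strand): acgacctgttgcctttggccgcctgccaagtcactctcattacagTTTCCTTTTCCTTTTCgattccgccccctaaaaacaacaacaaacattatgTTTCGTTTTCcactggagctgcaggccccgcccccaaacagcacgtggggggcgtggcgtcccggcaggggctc
IFIT1 (chr10:89392453-89392622, plus strand): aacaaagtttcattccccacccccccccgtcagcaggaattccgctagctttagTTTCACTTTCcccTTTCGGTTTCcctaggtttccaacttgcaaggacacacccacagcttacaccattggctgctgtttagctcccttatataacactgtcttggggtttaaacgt
ISG15 and BST2 each had 2 overlapping matches, on the gene strand, while HERC5 had 2 that overlap and 1 apart, on the opposite strand. IFI6 had 3 separate matches, and ISG20 and GBP1 had 1 each. A match is a run of letters and was not shown to be bound.

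Members with the element lay on both sides of 0. Of the members above the floor, 15 had an ISRE core match and 8 in the promoter table had none. The 15 ran from -0.44 for BST2 to 0.84 for ISG20, with a median RMA difference of 0.09. The 8 without a match ran from -0.50 for OAS1 to 0.35 for HERC6, with a median of -0.12. IFI27, GBP1 and PARP9, which had to be higher in CD133+ to pass the floor, are all among the 15. The medians of these groups are therefore not like for like. All 4 members at 1.5-fold that were in the promoter table had a match, GBP1 among them. No test of this split was made, since 1 array per population gives none. Among the 7 members under the floor that were in the table, 6 had a match, against 15 of 23 above it.

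**Figure D3:**
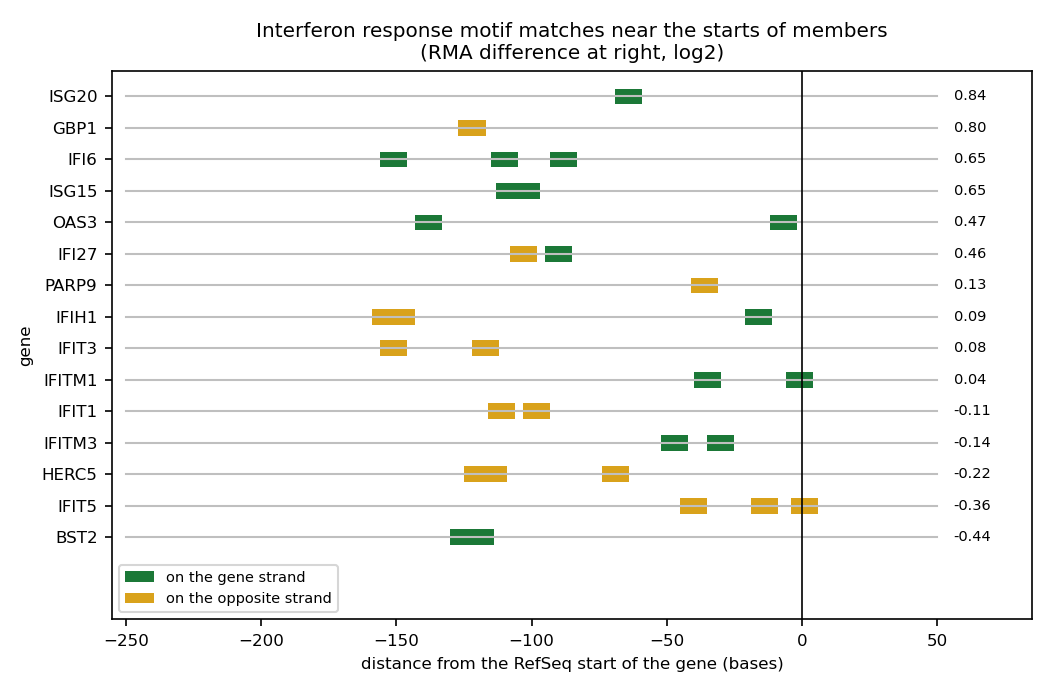
ISRE core matches (bars, 10 bases wide) in the promoter window of the 15 members above the floor that held a match, placed by distance from the RefSeq start in bases, with genes ordered by RMA difference (numbers at right, log2). For a gene with several windows, that with the most matches is drawn; matches are spread from ISG20 at 0.84 at the top to BST2 at -0.44 at the bottom.

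Among the transcription factors, neither IRF1 nor IRF9 differed beyond the probe set spread. IRF9, a DNA-binding subunit of the factor that binds the ISRE, measured 7.69 in CD133+ against 7.78 in CD133- in RMA, with MAS5 intensities of 697 and 629. IRF1, a factor induced by interferon gamma, had RMA values of 6.90 and 6.85 and MAS5 intensities of 334 and 364, and its second probe set also had an RMA difference of 0.04. In both genes RMA and MAS5 had opposite signs. IRF7, which amplifies interferon alpha transcription, was under the floor in both populations at 4.10 and 3.82.

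Of the 8 genes for sensing and degrading nucleic acid, 6 were above the floor, and they went both ways. ISG20, a 3′ to 5′ exonuclease that degrades RNA, was the highest of them in difference, at 9.17 in CD133+ against 8.33 in CD133- in RMA. Its MAS5 intensities were 2224 and 1017, so it was 1.79-fold higher in RMA and 2.19-fold higher in MAS5. Its second probe set had an RMA difference of 0.52, and ISG20 was the member nearest to the 2-fold limit from below in RMA, MX2 the nearest from above. The oligoadenylate synthetases, which make the messenger that activates RNase L, did not move as a family. OAS3 measured 7.04 in CD133+ against 6.57 in CD133- in RMA, with MAS5 intensities of 509 and 323, and was 1.39-fold higher in RMA. OAS1 had RMA values of 6.10 and 6.61 and MAS5 intensities of 310.4 and 456, and was 1.42-fold lower. It had the lowest RMA difference of the members above the floor, at -0.50, and its second probe set had -0.33. OAS1 and OAS3 are neighbours on chromosome 12, with OAS2 beside them, whose chosen probe set was under the floor with RMA values of 3.97 in both populations.

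OASL, a related protein without synthetase activity that enhances RNA sensing, measured 6.31 in CD133+ against 6.58 in CD133- in RMA. Its MAS5 intensities were 140.1 and 308, so the difference was -0.27 in RMA and -1.14 in MAS5. A second OASL probe set had differences of -0.40 and -0.49, on the same side. The RNA helicases that sense viral RNA lay close to 0. IFIH1, which encodes MDA5, measured 6.01 in CD133+ against 5.92 in CD133- in RMA. DDX58, which encodes RIG-I and is now named RIGI, had RMA values of 6.33 in both populations, and MAS5 intensities of 133 and 148. Its other probe sets had RMA differences of -0.20 and 0.16. DDX60, a helicase that assists RIG-I, was under the floor.

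The IFIT genes, which encode proteins that bind viral RNA through its 5′ end or block its translation, were all above the floor and none was counted. IFIT1 measured 5.95 in CD133+ against 6.06 in CD133- in RMA, IFIT2 had 5.45 and 5.37, and IFIT3 had 5.24 and 5.16. For each of these 3 genes the MAS5 log2 ratio had the opposite sign, at 0.40, -0.19 and -0.42. IFIT5 differed most, with RMA values of 6.70 and 7.06 and MAS5 intensities of 358 and 472, which is 1.28-fold lower in RMA. Its second probe set had an RMA difference of -0.21. The 4 genes lie close together on chromosome 10.

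The membrane restriction factors keep viruses from entering or leaving the cell, and none was counted as higher or lower. Of the 4 members 3 were below 0, while of all genes above the floor 48.2% were above 0 and 1.9% had equal values. This split of 4 genes is not read as a result. BST2, or tetherin, which holds budding virus particles at the surface, measured 9.48 in CD133+ against 9.92 in CD133- in RMA. In MAS5 its intensities were 3768 and 5100.1, or 1.36-fold lower in RMA and 1.35-fold lower in MAS5. IFITM3 and IFITM2, which block virus entry in endosomes, had RMA values of 12.66 against 12.80 and of 11.78 against 11.94. Both differences, -0.14 and -0.17, were inside the probe set spread. IFITM1, which acts at the cell surface, had 6.10 and 6.06. The chosen probe sets of IFITM2 and IFITM3 carry the suffix _x_at, which marks probes that can match other sequences, and these paralogs are close in sequence, so how signal divides between them is uncertain. A probe set assigned to both IFITM1 and IFITM2 had equal RMA values of 6.24 in both populations.

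The interferon-induced GTPases held both members counted as higher. Of the 4 genes, GBP2 and MX2 were above the floor in both populations, GBP1 in CD133+ alone and MX1 in neither. GBP2, a guanylate-binding protein that attacks vacuoles of intracellular pathogens, measured 8.22 in CD133+ against 6.98 in CD133- in RMA, with MAS5 intensities of 1114 and 484. It was 2.37-fold higher in RMA and 2.30-fold in MAS5, and its RMA difference ranked 216th from the top among 13116 genes. A second GBP2 probe set, close to the floor, differed by 0.44 in RMA and by 0.67 in MAS5, so the median over its probe sets was 0.84 and GBP2 was then not counted. GBP1, from the same gene cluster on chromosome 1, measured 5.21 in CD133+ against 4.41 in CD133- in RMA. The second of these is under the floor, so no fold is given, and its differences were 0.80 in RMA and 2.11 in MAS5. Of its other probe sets, all under the floor, 1 had an RMA difference of 0.72 and the others had -0.08 and -0.10.

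MX2, a dynamin-like GTPase that restricts HIV at nuclear entry, measured 6.49 in CD133+ against 5.47 in CD133- in RMA. Its MAS5 intensities were 425 and 122.7, so it was 2.03-fold higher in RMA and 3.46-fold in MAS5, and it has 1 probe set. With the floor at the 75th percentile MX2 was no longer above it, and GBP2 was the only member counted. MX1, its neighbour on chromosome 21 and an inhibitor of influenza viruses, was under the floor at 4.65 and 4.49, and its MAS5 log2 ratio was 1.21. Beside these differences, LYZ, a leukocyte marker that was counted as higher, had RMA values of 11.14 and 9.42. The summed MAS5 intensity of all 10 leukocyte markers was 10709 in CD133+ and 4378 in CD133-, of which LYZ made up 10257 and 4008. Of 6 endothelial markers PECAM1 alone was above the floor, and it was counted as lower, at 6.11 and 7.87 in RMA, while CDH5, VWF and KDR were under the floor. Of 7 fibroblast and stellate cell markers 3 were above the floor and none was counted, and their summed MAS5 intensity was 952 in CD133+ and 556 in CD133-. That of the endothelial markers was 332 and 992. Among the leukocyte markers PTPRC had RMA values of 3.01 and 2.94, under the floor in both populations. CD3E had 5.85 and 5.78, above it in both, as were CD3D, CD4 and ITGAM. The part of other cell types in the GTPase differences was not tested.

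**Figure D4:**
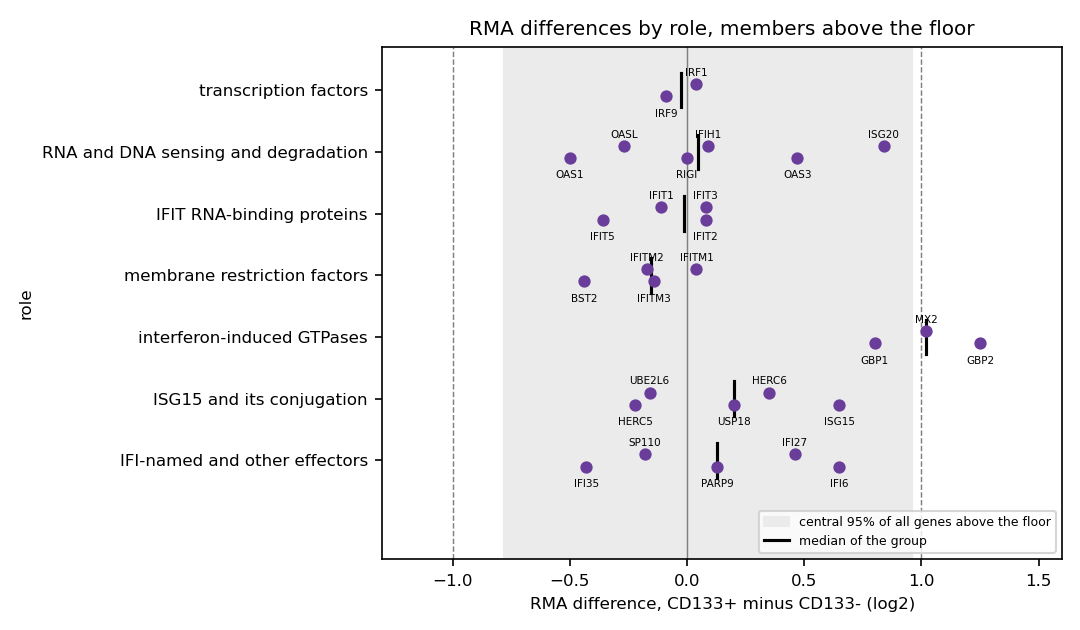
RMA differences (CD133+ minus CD133-, log2) of the 29 members above the floor by role, with a black line at each group's median, a grey band for the central 95% of all genes above the floor, from -0.78 to 0.96, and dashed lines at 2-fold. GBP2 and MX2 lie to the right of the band and no member lies to its left; GBP1, IFI27 and PARP9 are under the floor in CD133-.

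Among the genes of ISG15 conjugation the modifier itself had the largest difference. ISG15, the ubiquitin-like protein that is attached to other proteins, measured 10.06 in CD133+ against 9.42 in CD133- in RMA. Its MAS5 intensities were 3771 and 2304, so it was 1.56-fold higher in RMA and 1.64-fold in MAS5. UBE2L6, the E2 enzyme of this pathway, had RMA values of 8.47 and 8.63, and HERC5, its main E3 ligase, had 7.37 and 7.59. Both differences, -0.16 and -0.22, lay inside the probe set spread. HERC6, a close relative next to HERC5 on chromosome 4, went the other way at 6.02 and 5.67. USP18, the protease that removes ISG15 and that also restrains receptor signalling, had RMA values of 8.26 and 8.06 and MAS5 intensities of 1164 and 799. All 5 genes of this group were above the floor.

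Among the remaining effectors, 5 of 11 measured genes were above the floor. IFI6, a mitochondrial protein that delays apoptosis, measured 8.13 in CD133+ against 7.49 in CD133- in RMA. In MAS5 its intensities were 1287 and 799, or 1.57-fold higher in RMA and 1.61-fold in MAS5. IFI27, a related protein, had RMA values of 5.54 and 5.07, the latter under the floor, and differences of 0.46 in RMA and 1.46 in MAS5. IFI35, which binds the signalling partner NMI, was on the other side at 7.92 and 8.35 in RMA and at 725 and 1000.5 in MAS5, or 1.35-fold lower in RMA. SP110, a nuclear body protein, had RMA values of 7.18 and 7.36, and its 5 probe sets above the floor ran from -0.24 to 0.37. PARP9, an ADP-ribosyltransferase that acts with the ubiquitin ligase DTX3L, had 5.22 and 5.09.

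The 10 members under the floor in both populations were IFI44, IFI44L, MX1, OAS2, IRF7, DDX60, RSAD2, XAF1, TRIM22 and SAMD9. They include viperin (RSAD2) and other antiviral effectors. Their RMA values ran from 2.41 to 4.65, and their RMA differences from -0.36 for DDX60 to 0.29 for IRF7. Their MAS5 log2 ratios ran from -2.79 for TRIM22 to 3.22 for IRF7, at intensities of at most 115.7, beside column medians of 86.0 and 86.1. Ratios at that level are not read as differences. Equal RMA values in both populations were found in 4 members, IFI44L, OAS2, RSAD2 and DDX58, and in 3211 probe sets of the array, or 5.87%. No probe set had equal MAS5 values, so an RMA difference of exactly 0 does not mean that the deposited intensities were equal.

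The genes that make and receive the interferon signal were taken from lists beside the members. Of 18 interferon ligand genes measured, 17 were under the floor, IFNB1 and IFNG among them, and IFNA17 was above it at 5.58 in CD133+ against 5.56 in CD133- in RMA but with MAS5 intensities of 11.7 and 55.1. All 6 receptor chains were above the floor and none was counted. IFNGR2, the signalling chain of the interferon gamma receptor, had the largest difference, with RMA values of 9.69 and 8.91 and MAS5 intensities of 4485 and 2006, or 1.72-fold higher in RMA. IFNGR1, its ligand-binding chain, had 9.24 and 9.52. IFNLR1, the specific chain of the type III receptor, had 6.80 and 6.20, but its second probe set had an RMA difference of 0.02. IFNAR2, a chain of the type I receptor, had 9.46 and 9.26. Of 3 genes of JAK-STAT signalling above the floor none was counted, and the kinases JAK1 and TYK2 had RMA differences of 0.16 and -0.16. JAK1 probe sets did not move alike. One above the floor, at 7.02 in CD133+ against 5.70 in CD133-, differed by 1.32 in RMA and by 1.24 in MAS5. Another above the floor differed by -0.13 in RMA.

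No negative regulator was counted among 10 above the floor, and their median RMA difference was 0.03. The largest were SOCS3 at -0.23, PTPN6 at 0.22, and USP18 and PTPN2 at 0.20 each. Of 12 genes of nucleic acid sensing above the floor, 1, or 8.33%, was counted as higher, beside 2.25% of all genes. The gene counted was MYD88, the adaptor of Toll-like and interleukin-1 receptors. It measured 7.39 in CD133+ against 6.38 in CD133- in RMA, with MAS5 intensities of 613 and 226. It was 2.01-fold higher in RMA and has 1 probe set. STING1, the adaptor of cytosolic DNA sensing, had an RMA difference of -0.38 at MAS5 intensities of 15.4 and 103, and its second probe set, under the floor, had -0.04 in RMA and 1.28 in MAS5. IKBKE, a kinase gene, had an RMA difference of 0.36. DHX58 and TLR4 had RMA differences of 0.37 and -0.25 at MAS5 intensities of at most 13.9.

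Among 28 other interferon-induced antiviral genes above the floor, 1, or 3.57%, was counted as higher and none as lower. Over all genes these shares were 2.25% and 1.09%. The list's median RMA difference was -0.03. The higher gene was APOBEC3B, a cytidine deaminase, at 7.25 in CD133+ against 5.56 in CD133- in RMA, which is 3.24-fold. LGALS3BP, a secreted glycoprotein, had RMA values of 8.74 and 9.70 and was 1.94-fold lower, just short of the limit. SHFL, which blocks programmed ribosomal frameshifting, had 8.59 and 9.46, with RMA differences from -0.86 to -0.67 over its 3 probe sets. TRIM25, the ubiquitin ligase that activates RIG-I, had 7.82 and 8.40, and NMI had 8.05 and 7.50.

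**Figure D5:**
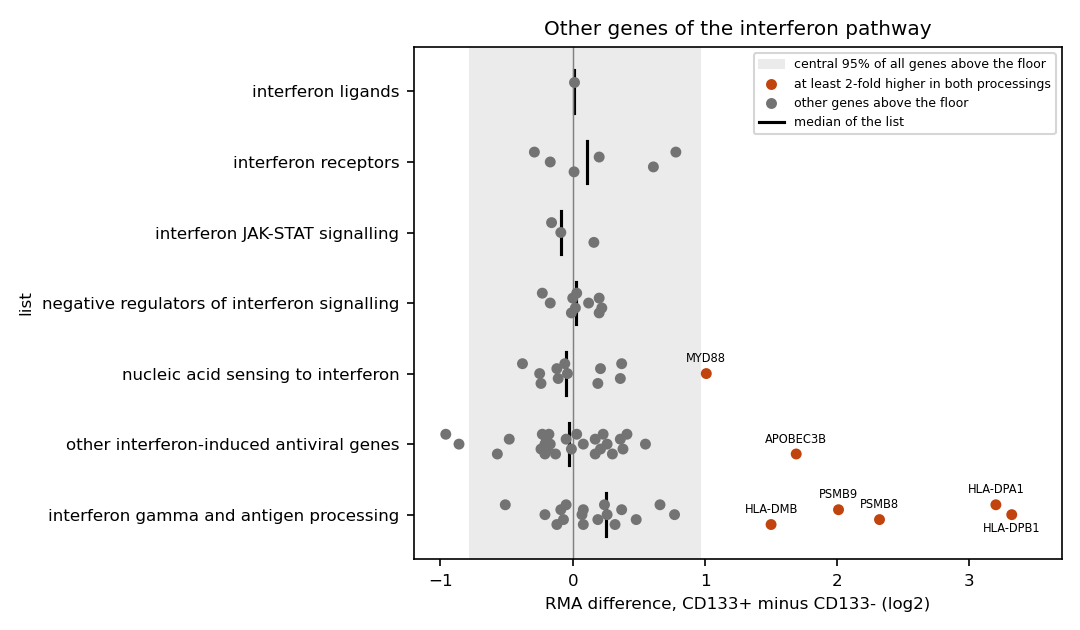
RMA differences (CD133+ minus CD133-, log2) of the genes above the floor in 7 lists of the interferon pathway, with orange points for genes at least 2-fold higher in RMA and MAS5, a black line at each list's median and a grey band for the central 95% of all genes. The list of interferon gamma and antigen processing genes holds 5 of the 7 orange points and has a median of 0.25, and no gene in these lists was counted as lower.

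In the list of interferon gamma and antigen processing genes, PSMB8, PSMB9, HLA-DPB1, HLA-DPA1 and HLA-DMB were higher in CD133+. Of 22 genes above the floor, 5, or 22.7%, counted as higher and none as lower, beside 2.25% of all genes, and the list's median RMA difference was 0.25. The list was written with earlier results of these arrays known, so its count is no independent evidence. PSMB8, an immunoproteasome subunit, measured 7.56 in CD133+ against 5.24 in CD133- in RMA, with MAS5 intensities of 725 and 11.5. PSMB9, another such subunit, had RMA values of 8.03 and 6.01. The 2 chains of HLA-DP, which presents peptides to CD4 T cells, differed by 3.32 (HLA-DPB1) and 3.20 (HLA-DPA1), and HLA-DMB, which helps load class II peptides, measured 8.33 against 6.82. TAP1 and TAP2, the subunits of the peptide transporter, had RMA differences of 0.77 and 0.48, and HLA-DMA one of 0.66. Other genes of the same kinds were not counted. PSMB10, the third catalytic immunoproteasome subunit, had an RMA difference of -0.12 and PSME1, of the proteasome activator, 0.08. Of the class II genes, HLA-DRB1 had 0.19, the invariant chain CD74 0.08 and the class II transactivator CIITA -0.05, and HLA-DRA was under the floor. For CD74 and CIITA the processings did not go together, with MAS5 log2 ratios of 2.24 and 0.62. Another CD74 probe set above the floor differed by 0.43 in RMA and by 0.27 in MAS5. ICAM1, an adhesion molecule, was on the other side at -0.51. The median of this list was 0.08 over 12 genes when _x_at and _s_at probe sets were left out.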

How the data were processed

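Oligonucleotide arrays measured gene expression in CD133+ and CD133- PLC8024 cells, sorted by flow cytometry, from total RNA extracted with Trizol and labelled with biotin, per the labels' protocols. The authors deposited MAS5 values as linear intensities and RMA values on a log2 scale. Per the submitters' processing notes, the tools were GCOS, MAS5 and RMA. Tool versions, the arrays normalized together and whether both processings of a population share an array are unstated (not given in the sources used here). The columns were therefore treated as 2 processings, never as replicates. The number of arrays limits the precision.

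From the deposited values, each gene's RMA difference (CD133+ minus CD133-) and its log2 ratio of MAS5 intensities were computed with Python 3.11.15 and pandas 2.3.3. Of 54675 probe sets, 41097 had 1 gene in GEO's platform annotation, 1801 had several and 11777 had none or were not listed. Symbols were updated through gene IDs to RefSeq (GRCh38.p14), and promoter sequences are RefSeq's. Genes counted as higher or lower were those above the floor (the higher RMA value at or over its column's median) and at least 2-fold different, the same way, in both processings. Folds are given only where both populations were above the floor. The rule was tested on simulated data, with independent noise in RMA and MAS5 and with differences only in genes well above the floor. That simulation gives no error rate for these arrays. All members could be named, and in each other list the counted genes and up to 4 others with the largest RMA difference. Members and lists were chosen with earlier results of these data known. Alternatives covered the floor, the fold, the MAS5 pseudocount, centring and the choice of probe set.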

Additional observations from a re-analysis of the deposited data

How the results depend on the processing

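The count of members at least 2-fold higher was 2 in the main setting and stayed 2 with a MAS5 pseudocount of 50, with no floor, without _x_at and _s_at probe sets and after centring. It was 5 in MAS5 alone (IFI27, ISG20, MX2, GBP1 and GBP2), where 7.65% of all genes were higher, and 6 at 1.5-fold, beside 5.32% of all genes. Of these, IFI27 had MAS5 intensities of 45.8 and 16.6, under the column medians of 86.0 and 86.1. The count was 1 at the 75th percentile floor (GBP2) and 1 with the median over all probe sets (MX2), beside 2.4% and 1.9% of all genes. The count of lower members was 0 in every setting except MAS5 alone, where it was 1 (OASL), beside 5.6% of all genes. The members' median RMA difference was -0.14 under the 75th percentile floor and -0.09 with the median over all probe sets, against 0.04, so its sign is not settled.

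The median of interferon gamma and antigen processing genes was 0.45 in MAS5 alone, 0.42 with a pseudocount of 50, 0.35 with the higher floor and 0.08 without _x_at and _s_at probe sets, against 0.25. That of other interferon-induced antiviral genes was 0.37 for MAS5 alone and 0.34 when 50 was added, against -0.03. The sensing genes had 0.14 with the median over probe sets, against -0.05, and the negative regulators 0.19 without _x_at and _s_at probe sets, against 0.03. The single ligand above the floor, IFNA17, had -2.24 in MAS5 alone. The cause of these shifts was not tested. No paired analysis was possible because each population has 1 array per processing and no result comes from a test. Leaving out an array was not run, since it would leave a group empty.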
